A study of Mus musculus with 10 samples.

Results

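Forkhead transcription factors other than FOXC2 were examined in B16-F1 cells, a mouse melanoma line of C57Bl/6 origin, and in its FOXC2-deficient counterpart, B16-F1ΔFOXC2. The study compared the 2 lines to find which genes FOXC2 induces or represses. The genes described are the 9 forkhead genes Foxc1, Foxm1, Foxp1, Foxj3, Foxn3, Foxk1, Foxk2, Foxo1 and Foxo3, taken by name from a table of 10735 protein-coding genes, all 9 of which were listed. A search of the same table for 43 mouse forkhead symbols returned 7 further genes, Foxa1, Foxj2, Foxn2, Foxo4, Foxp2, Foxp4 and Foxr2, so 16 forkhead genes were listed in all. Foxc2, the gene targeted in the derived line, was not analysed here, and the genotypes stand as labelled. There were 5 libraries of wild-type cells and 5 of ΔFOXC2 cells, each from a 24 h culture in medium with 10% serum, at about 90% confluence and passages 5 to 10. Whether the ΔFOXC2 line is 1 clone is not stated in the labels, so any difference in origin between the lines is part of every comparison and cannot be told apart from the genotype. They speak of replicate experiments without further detail, and p-values measure the spread between these libraries.

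Forkhead proteins share a winged-helix DNA-binding domain and read related DNA motifs, while the rest of each protein sets its partners and its control. FOXC1 is the closest relative of FOXC2 and acts with it in mesoderm, blood vessel and eye development. FOXM1 drives genes of late cell cycle and mitosis, the FOXO proteins are held in the cytoplasm when AKT phosphorylates them and otherwise switch on arrest, autophagy and stress genes, and FOXK, FOXN3 and FOXP1 act largely as repressors.

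Expression was deposited as FPKM, fragments mapped to a transcript scaled by its length and by the size of the library, so that levels of different genes can be set side by side. The sum of FPKM per library was 240441 to 251273, and the read depth behind it is unknown. Differences are wild type minus ΔFOXC2 on log2(FPKM + 0.1), tested with limma over 10570 genes. Calls required both a Benjamini-Hochberg adjusted p no higher than 0.05 and a difference of 1.5-fold or more, and 8.62% of all tested genes met both. All 10 melanocyte lineage markers searched were listed, summing to 3403 to 3928 FPKM per wild-type library and 4092 to 4539 per ΔFOXC2 library. Of these, 9 were higher in ΔFOXC2 cells by adjusted p, and Tyr passed 1.5-fold as well (log2 -0.71, limma adjusted p = 1.547e-04). Among all tested genes, 41.6% passed the adjusted p at any fold in either direction, and 20.8% passed it with higher wild-type levels. Of 16 markers of leukocytes, endothelium, epithelium and stroma, Cd68 and Col1a2 were listed, summing to 1.24 to 1.78 FPKM per wild-type library and 1.95 to 2.53 per ΔFOXC2 library, and Cd68 was called lower in the wild type (log2 -0.94, limma adjusted p = 0.00344). Defining markers of leukocytes, endothelium and epithelium such as Ptprc, Pecam1 and Epcam were not among the genes analysed here. The part of these marker differences in the results below was not tested.

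None of the 9 forkhead genes was called by limma, against 8.62% of all tested genes, and 8 of the 9, all but Foxn3, had a 95% interval of the difference that lay wholly inside 1.5-fold. Foxn3 had the largest difference of the 9, 1.46-fold higher in the wild type and just under the fold threshold. With the fold ignored, Foxn3 alone of the 9 passed the adjusted threshold, higher in the wild type, where 41.6% of all tested genes passed and 20.8% were higher in the wild type. On unadjusted p-values 4 of the 9 passed 0.05, where 49.4% of all tested genes did, and 0 of the 9 passed with 1.5-fold as well, where 8.82% did. Groups without overlap were found for 1 of the 9, against 30.0% of all tested genes. The median log2 difference of the 9 was 0.04, and that of all tested genes 0.01. Among the 7 further forkhead genes, Foxr2 and Foxa1 were called and both were higher in the wild type.

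Foxc1 (chromosome 13, 31806633 to 31812476, plus strand, build GRCm38) had a level that differed between the lines by less than the spread of the libraries. The wild-type libraries had 6.48, 5.77, 6.57, 6.53 and 6.40 FPKM, and the ΔFOXC2 libraries 6.53, 6.03, 5.96, 5.74 and 6.72. The groups overlap over most of their range, and the highest single value is a ΔFOXC2 library. The means were 6.35 ± 0.330 FPKM (SD, n = 5) and 6.20 ± 0.410, with a log2 difference of 0.04 and a 95% interval of -0.10 to 0.17 (limma adjusted p = 0.664). On the linear scale that interval runs from 0.936-fold to 1.12-fold, so a 1.5-fold change of Foxc1 in either direction lies outside it. Of the 10 tested genes nearest to Foxc1, 2 were called and their median log2 difference was -0.05. Among 6841 genes averaging 5 FPKM or more, those whose log2 deviations from their group means followed those of Foxc1 most closely over the 10 libraries were Hmgb1 (Pearson r 0.96), Tmem9 (0.89) and Dnajc25 (0.87). These are the highest of many correlations over few libraries and are given as a description.

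Foxn3 (chromosome 12, 99190078 to 99563582, minus strand) encodes a repressor linked in human cells to cell cycle checkpoints. Its 5 wild-type libraries had 3.44, 3.73, 3.65, 3.86 and 3.86 FPKM. The ΔFOXC2 libraries had 2.39, 3.07, 2.68, 2.00 and 2.54 FPKM. Every wild-type library was above every ΔFOXC2 library, and the coefficient of variation was 4.76% for wild-type and 15.3% for ΔFOXC2 libraries. The means were 3.71 ± 0.176 and 2.54 ± 0.389 FPKM, a log2 difference of 0.54 (SE 0.0988, limma adjusted p = 0.00116). The exact two-sided permutation test gave p = 0.00794, the smallest it can give with 5 libraries against 5. That value follows from the lack of overlap, which 30.0% of all tested genes showed, and adds nothing to it. The interval of 1.25-fold to 1.69-fold includes the threshold of 1.5-fold, and without ΔFOXC2 replicate 2 the gene was called (log2 0.61, limma adjusted p = 4.305e-04). Its chromosome had a median log2 difference of 0.03, and the 10 tested genes nearest to Foxn3 a median of 0.09 with none called.

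Foxm1 (chromosome 6, 128362967 to 128376146, plus strand) was among the most abundant forkhead genes. Its wild-type libraries had 26.6, 23.8, 36.5, 23.8 and 25.3 FPKM, and its ΔFOXC2 libraries 21.0, 23.7, 23.0, 26.5 and 19.2. Wild-type replicate 3 stands above all others, and the remaining libraries of the groups overlap. The means were 27.2 ± 5.34 and 22.7 ± 2.76 FPKM, with a log2 difference of 0.25 and a 95% interval of -0.01 to 0.51 (limma adjusted p = 0.118). Without wild-type replicate 3 the log2 difference was 0.14 (limma adjusted p = 0.222). The genes that followed the within-group deviations of Foxm1 most closely were Ctnnbl1 (Pearson r 0.91), Zfp428 (0.90) and Sdccag3 (0.88), again over 10 libraries.

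Among 30 genes that FOXM1 is known to activate, such as mitotic kinases, cyclins and centromere proteins, there were 0 calls by limma. Ignoring the fold, the adjusted p passed for 10 that were higher in the wild type and 1 that was lower, and the unadjusted p passed 0.05 for 15. Over all tested genes, 41.6% passed the adjusted threshold in either direction, 20.8% passed it with higher wild-type levels, and 49.4% passed 0.05 unadjusted. The unadjusted count, which ignores direction, is thus at the background, while the directions within the list were uneven. Of the 30, 26 had a log2 difference above 0, and the median was 0.16 where all tested genes had 0.01. Cdc25b, a phosphatase that activates mitotic cyclin-dependent kinase, was nearest to the threshold, with 22.8 against 15.3 FPKM (log2 0.58, SE 0.0991, limma adjusted p = 7.152e-04), and was singled out after its value was seen. It passed 1.5-fold with a pseudocount of 0.01 and when replicate 1 or 2 of the wild type, or replicate 2 or 3 of ΔFOXC2, was left out. The most abundant members, Ccnb2, a mitotic cyclin (101 ± 2.76 against 97.6 ± 10.2 FPKM), and Top2a, the topoisomerase that untangles replicated DNA (100 ± 6.03 against 88.5 ± 5.33 FPKM), had log2 differences of 0.06 and 0.18 (limma adjusted p = 0.483 and 0.0161). In wild-type replicate 3, where Foxm1 was 0.44 above its group mean on the log2 scale, the median target was at -0.01. Of 20 partners and regulators of FOXM1, 1 was called: Ccnd1, the cyclin whose kinase phosphorylates FOXM1, was lower in the wild type, at 45.3 ± 2.45 against 87.5 ± 12.0 FPKM (log2 -0.94, limma adjusted p = 7.265e-06). The shares of all tested genes called were 3.65% for higher and 4.97% for lower wild-type levels.

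**Figure D1:**
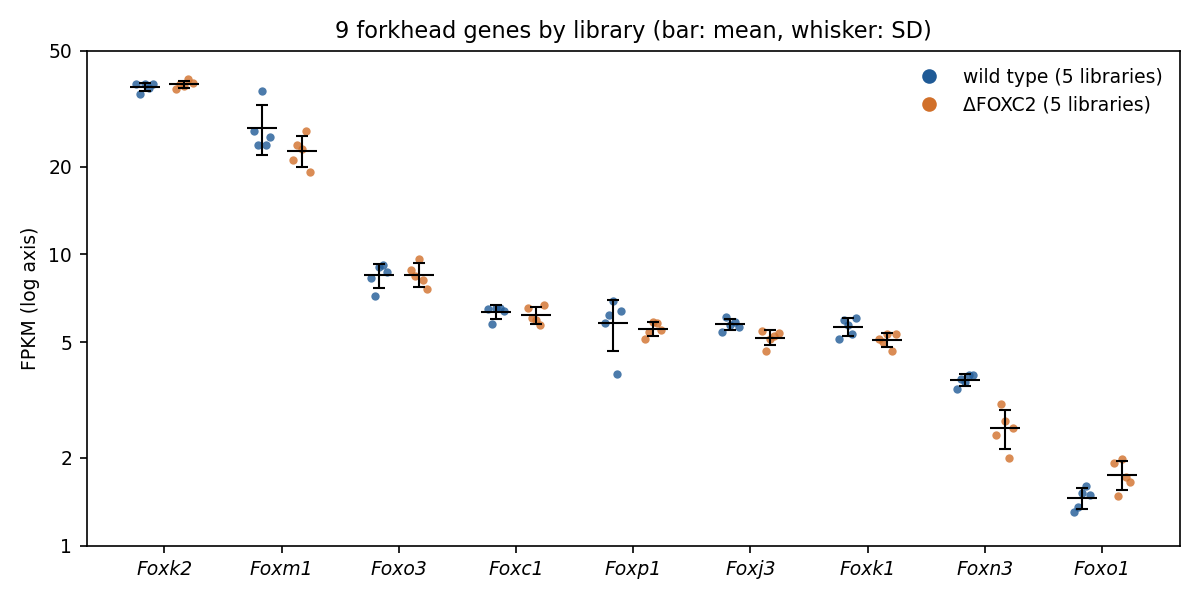
FPKM on a log axis for the 9 forkhead genes, with a point for each of 5 wild-type (blue) and 5 ΔFOXC2 (orange) libraries, the mean as a bar and the SD as a whisker. The colours separate for Foxn3, at 3.44 to 3.86 against 2.00 to 3.07 FPKM, and overlap for the other 8 genes.

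The FOXO genes differed from one another in level more than between the lines. Foxo3 (chromosome 10, 42181841 to 42276755, minus strand) had 8.31, 7.18, 9.05, 9.21 and 8.68 FPKM in the wild type, against 8.83, 8.40, 9.66, 8.15 and 7.58 in ΔFOXC2 cells, and the groups overlap. Its log2 difference was -0.01 (95% interval -0.18 to 0.17, limma adjusted p = 0.954). Foxo1 (chromosome 3, 52268336 to 52353221, plus strand) was the lowest of the 9. Its wild-type libraries had 1.31, 1.36, 1.52, 1.60 and 1.49 FPKM, and the ΔFOXC2 libraries 1.92, 1.48, 1.99, 1.72 and 1.66. ΔFOXC2 replicate 2 falls within the wild-type range, and the other 4 lie above it. The log2 difference was -0.25 (SE 0.0975, limma adjusted p = 0.0626), which did not pass, and the interval of 0.727-fold to 0.978-fold excludes 1.5-fold. Without ΔFOXC2 replicate 2 the adjusted p was 0.0289, still below 1.5-fold (log2 -0.30). The ratio of Foxo3 to Foxo1 was 5.26 to 6.33 in wild-type libraries and 4.58 to 5.67 in ΔFOXC2 libraries. Foxo4, a FOXO gene on chromosome X, was more abundant than either, at 15.2 ± 1.62 against 15.9 ± 1.17 FPKM (log2 -0.07, limma adjusted p = 0.499).

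Among genes around the FOXO proteins the shares called, 10.5% of the upstream genes and 10% of the binding and modifying proteins, were near the 8.62% of all tested genes. Of 19 upstream kinases and phosphatases, Pik3r2, a regulatory subunit of the PI3 kinase on chromosome 8, was higher in the wild type (28.7 ± 1.50 against 16.9 ± 1.00 FPKM, log2 0.76, limma adjusted p = 7.986e-07). Sgk1, a kinase that like AKT phosphorylates FOXO proteins, was lower (1.31 ± 0.166 against 2.17 ± 0.255 FPKM, log2 -0.69, limma adjusted p = 4.445e-04), and 17 were not called. Of 20 binding and modifying proteins, Sirt1, a deacetylase of FOXO proteins, was higher (2.76 ± 0.364 against 1.65 ± 0.185 FPKM, log2 0.71, limma adjusted p = 3.006e-04). Sfn, one of the adaptor proteins that bind phosphorylated FOXO, was lower (2.88 ± 0.233 against 4.64 ± 0.423 FPKM, log2 -0.67, limma adjusted p = 4.995e-05), and 18 were not called.

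Of 34 FOXO target genes fixed by name, 30 were tested, 4 were called higher in the wild type, 0 lower, and 26 were not called, where 3.65% of all tested genes were called higher and 4.97% lower. The insulin receptor Insr, on chromosome 8, had 2.23 ± 0.886 against 0.864 ± 0.258 FPKM (log2 1.23, limma adjusted p = 0.00258). Ccng2, an atypical cyclin of arrested cells, had 2.16 ± 0.236 against 0.933 ± 0.253 FPKM (log2 1.16, limma adjusted p = 1.189e-04). The transcription factor Klf4 had a log2 difference of 0.88 and the apoptosis gene Bbc3 of 0.66. Bbc3 was no longer called when any 1 of replicates 2 and 5 of the wild type or 1, 4 and 5 of ΔFOXC2 was left out (limma adjusted p = 0.0517 to 0.0657). The median of the 30 was 0.05, and without the 5 members on chromosome 8 it was -0.03 over 25 genes. Chromosome 8 as a whole had a median log2 difference of 0.36 over 578 tested genes, and the part of that shift in Insr and Pik3r2 was not tested. With a pseudocount of 1, Sgk1, Sirt1, Sfn, Klf4 and Bbc3 fell below 1.5-fold.

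FOXK proteins repress autophagy genes and promote glycolysis, and neither FOXK gene was called. Foxk2 (chromosome 11, 121259990 to 121309896, plus strand) was the most abundant forkhead gene in each line, spanning 35.5 to 38.5 FPKM over wild-type and 37.0 to 39.9 over ΔFOXC2 libraries. Its log2 difference was -0.03, with the narrowest interval of the 9, -0.11 to 0.05 (limma adjusted p = 0.543). Foxk1 (chromosome 5, 142401497 to 142462011, plus strand) had 5.13 to 6.06 FPKM against 4.67 to 5.34 (log2 0.14, 95% interval 0.00 to 0.28, limma adjusted p = 0.0927). Fscn1, an actin-bundling gene with a log2 difference of 7.39, is among the 10 tested genes nearest to Foxk1, and those 10 had a median of 0.06. The ratio of Foxk2 to Foxk1 was 5.94 to 7.51 in wild-type libraries and 7.10 to 8.56 in ΔFOXC2 libraries.

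Foxp1 (chromosome 6, 98925338 to 99522721, minus strand), a repressor known from lymphocyte and heart development, had 5.80, 6.17, 6.89, 3.87 and 6.38 FPKM in the wild type, where replicate 4 is the lowest of all 10 libraries. The ΔFOXC2 libraries had 5.14, 5.43, 5.86, 5.81 and 5.48 FPKM and lie inside the wild-type range. The log2 difference was 0.04 (95% interval -0.24 to 0.33, limma adjusted p = 0.815). Without wild-type replicate 4 the log2 difference was 0.18 (limma adjusted p = 0.0546). Foxj3 (chromosome 4, 119537004 to 119629119, plus strand), known in mouse for its part in sperm and muscle development, had 5.40 to 6.10 FPKM against 4.67 to 5.45. Its log2 difference was 0.15 (SE 0.0576, limma adjusted p = 0.0582), and its groups overlap at their edges. The 23 listed partners of FOXK, FOXN and FOXP proteins were largely corepressor and deubiquitinase genes, with Ogt, Dvl1, Dvl2 and Dvl3 also included. Among these 23 there were again 0 calls by limma. Ignoring the fold, 12 were higher in the wild type by adjusted p and 0 lower, 12 passed 0.05 unadjusted, and the median log2 difference was 0.14. Of all tested genes, 20.8% were higher by adjusted p with the fold ignored and 49.4% passed 0.05 unadjusted. The unadjusted count of the 23 partners is near the background, but it ignores direction. By direction the list was one-sided, with 22 of the 23 above 0 and a share higher by adjusted p above that of all tested genes. All tested genes had a median of 0.01. Without the 3 partners on chromosome 8, 19 of 20 were above 0 and the median was 0.13. Why the list leaned one way was not tested. Sin3a, the corepressor scaffold that binds FOXK proteins, had 28.7 against 23.2 FPKM (log2 0.31, limma adjusted p = 2.144e-04) and was picked as an example after its value was seen. The most abundant partners, Chd4 and Mbd3 of the NuRD complex, had log2 differences of 0.04 and 0.07 (limma adjusted p = 0.492 and 0.171).

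Foxr2 (chromosome X, 153118786 to 153132861, plus strand) differed most of the 16 forkhead genes. FOXR2 is silent in most adult human tissues and is switched on in a number of human tumours, where it stabilises MYC proteins. The 5 wild-type libraries had 26.3, 27.1, 24.3, 23.5 and 24.8 FPKM. The ΔFOXC2 libraries had 2.64, 3.04, 2.60, 2.68 and 2.11 FPKM. The groups are far apart, and the highest ΔFOXC2 library is well below the lowest wild-type library. The means were 25.2 ± 1.45 and 2.61 ± 0.334 FPKM, 9.64-fold higher in the wild type. The log2 difference was 3.23 (SE 0.0840, 95% interval 3.04 to 3.41, limma adjusted p = 6.921e-10), and 2.86 to 3.28 over all 20 alternatives. By log2 difference towards the wild type, Foxr2 ranked 28 among all tested genes. Of 2773 tested genes whose higher group averaged 20 FPKM or more, 1 had a larger log2 difference in either direction. That floor lies little below the wild-type mean of Foxr2 itself. In the wild type Foxr2 ranked 3 among the forkhead genes, its range overlapping that of Foxm1, and in ΔFOXC2 cells it ranked 12, its range overlapping that of Foxn3.

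The nearest tested gene on each side of Foxr2 was also higher in the wild type. Mageh1, a MAGE family gene on the minus strand that lies 81.2 kb before Foxr2, had wild-type levels of 1.01, 1.39, 1.07, 1.13 and 1.55 FPKM. It was listed at 0 in all 5 ΔFOXC2 libraries (limma adjusted p = 2.807e-08). Rragb, a Rag GTPase of amino acid sensing that starts 21.2 kb after the start of Foxr2, had 1.17, 1.44, 1.02, 0.967 and 1.49 FPKM in the wild type. In ΔFOXC2 cells replicate 1 had 0.0473 FPKM and the other 4 replicates were listed at 0 (limma adjusted p = 1.158e-07). With a group at or near 0 the log2 differences of both are set by the pseudocount, at 1.15 to 6.94 for Mageh1 and 1.13 to 6.41 for Rragb over pseudocounts of 1 and 0.01, and neither is a measured fold. All 3 tested genes between 153036166 and 153171943, a span of 136 kb, were called in the same direction, and why they moved together was not tested. The span was drawn from the edges of Mageh1 and Rragb after their values were seen, so this count adds nothing to the single calls. Mageh1 and Rragb averaged 0.616 and 0.612 FPKM over all libraries and passed the 0.5 FPKM filter only through the wild type. Their calls are therefore not independent support for a shared change. The annotated coding genes on either side of the span, Usp51 and Klf8, were not tested. The other 7 tested genes within 1 Mb had log2 differences of -0.40 to 0.43, both signs among them, and none was called by limma, although all 7 passed the adjusted threshold with the fold ignored. On the near side, Gpr143 starts 337 kb before Foxr2 and had a log2 of -0.34. On the far side, Ubqln2 starts 379 kb after it and had a log2 of 0.43. Chromosome X as a whole had a median log2 difference of 0.05 over 336 tested genes, with 8.93% called. Over all chromosomes, 33 tested genes passed the adjusted threshold with a log2 difference above 3. Of these 33, 7 were on chromosome X, which held 336 of the 10570 tested genes, with Foxr2, Mageh1 and Rragb among them. Mageh1 and Rragb were above 3 with the pseudocount of 0.1, but at 1.15 and 1.13 with a pseudocount of 1.

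**Figure D2:**
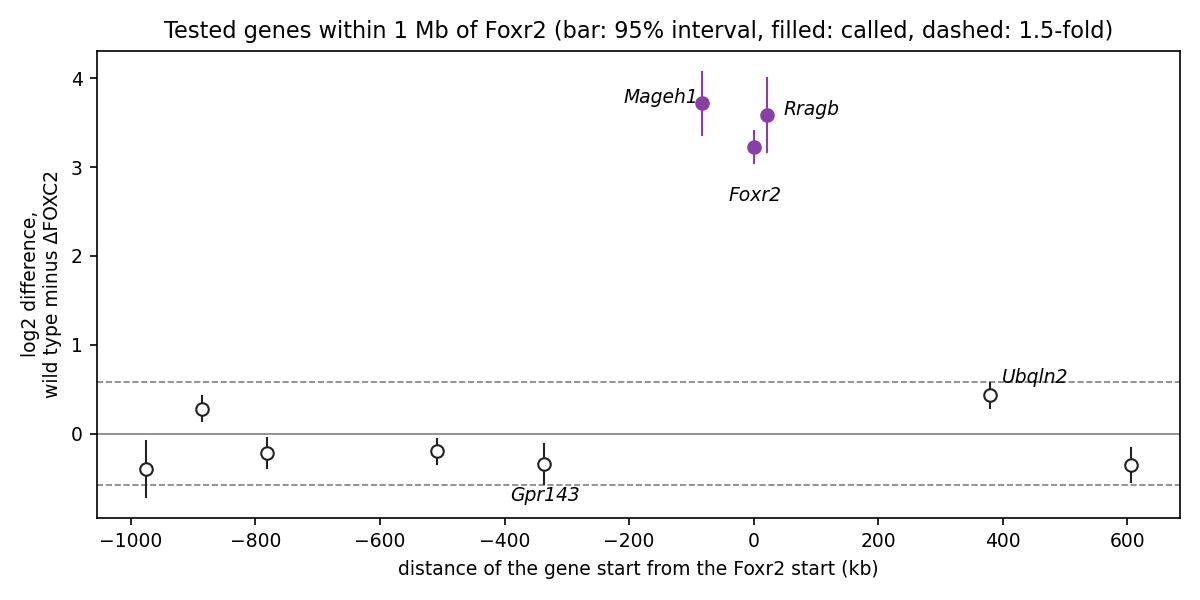
Log2 difference, wild type minus ΔFOXC2, of each tested gene within 1 Mb of Foxr2, against the distance of its start from the start of Foxr2 in kb. The start is the lower coordinate of a gene on either strand. Bars are 95% intervals, filled points are called genes and dashed lines mark 1.5-fold. Foxr2 lies at 3.23, Mageh1 and Rragb at 3.72 and 3.59, values that the pseudocount of 0.1 sets, and the other 7 genes between -0.40 and 0.43.

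Foxa1 (chromosome 12, 57540628 to 57546916, minus strand), a pioneer factor known from liver, breast and prostate, was low and was also higher in the wild type. The wild-type libraries had 1.04, 1.16, 1.80, 1.37 and 1.23 FPKM, and the ΔFOXC2 libraries 0.521, 0.458, 0.928, 0.534 and 0.639. All wild-type libraries were above all ΔFOXC2 libraries, and 30.0% of all tested genes had groups without overlap. The log2 difference was 1.00 (SE 0.186, limma adjusted p = 0.00131). With a pseudocount of 1 it was 0.52 and below 1.5-fold. The 10 tested genes nearest to Foxa1 had a median log2 difference of 0.12, and none was called by limma.

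The stretch of 230 bases before the RefSeq start is shown for the called genes Foxr2 and Foxa1 and, for comparison, for Foxc1, which was not called. Sequences are from RefSeq on GRCm38.p6, read 5′ to 3′ on the strand of the gene, and cover chrX:153118538-153118767 (plus strand), chr12:57546132-57546361 (minus strand) and chr13:31806396-31806625 (plus strand). The Foxa1 stretch precedes the RefSeq start used here but lies inside the longer gene span given above, so it is not upstream of the whole gene. Capitals mark the forkhead motif TGTTTAC, searched as this exact sequence on both strands, so that GTAAACA is the same motif on the other strand. Related forms of the motif were not searched, so a stretch without capitals may hold them.
Foxr2: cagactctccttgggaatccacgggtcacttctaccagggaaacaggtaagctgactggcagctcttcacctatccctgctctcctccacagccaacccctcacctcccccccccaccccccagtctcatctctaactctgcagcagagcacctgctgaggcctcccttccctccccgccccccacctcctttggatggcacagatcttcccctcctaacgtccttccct
Foxa1: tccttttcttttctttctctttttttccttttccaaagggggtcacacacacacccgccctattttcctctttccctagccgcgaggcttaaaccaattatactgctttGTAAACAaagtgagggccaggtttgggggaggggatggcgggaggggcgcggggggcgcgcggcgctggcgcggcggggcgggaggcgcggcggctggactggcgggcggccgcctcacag
Foxc1: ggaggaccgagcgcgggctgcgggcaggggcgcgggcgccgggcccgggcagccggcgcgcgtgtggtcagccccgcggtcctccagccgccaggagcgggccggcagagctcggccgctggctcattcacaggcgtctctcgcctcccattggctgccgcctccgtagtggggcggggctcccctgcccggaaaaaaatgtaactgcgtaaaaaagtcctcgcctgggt
The motif occurs once among these, at base 110 of the Foxa1 stretch. It was found in 1 of the 13 stretches available for 11 of the 16 forkhead genes, 7 of the 9 member genes among them, and in 2.91% of all 32851 stretches. The Foxr2 stretch holds 3 CG dinucleotides, against 20 for Foxa1 and 28 for Foxc1, where the median of all stretches was 5 and 40.7% held 3 or fewer.

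The other 5 forkhead genes outside the list were not called. Foxj2, a relative of Foxj3, spanned 9.02 to 10.2 FPKM over wild-type and 7.55 to 8.66 over ΔFOXC2 libraries. Its log2 difference was 0.26 (SE 0.0520, limma adjusted p = 0.00222). Its groups do not overlap, as was the case for 30.0% of all tested genes. Foxp2, a relative of Foxp1, had 0.673 ± 0.136 against 0.455 ± 0.0590 FPKM (log2 0.47, limma adjusted p = 0.0289). The lowest mean of the higher group in the table is 0.5 FPKM, and Foxp2 was above that level in the wild type alone. Foxn2 had 7.06 ± 0.262 against 6.71 ± 0.388 FPKM (log2 0.07, limma adjusted p = 0.286). Foxp4 had 15.2 FPKM in wild-type replicate 1 and 8.29 to 9.28 in the other 4, against 7.11 to 10.3 in ΔFOXC2 cells (log2 0.27, limma adjusted p = 0.208). Without wild-type replicate 1 the log2 difference of Foxp4 was 0.11 (limma adjusted p = 0.418). The remaining 27 forkhead symbols searched were not analysed here.

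**Figure D3:**
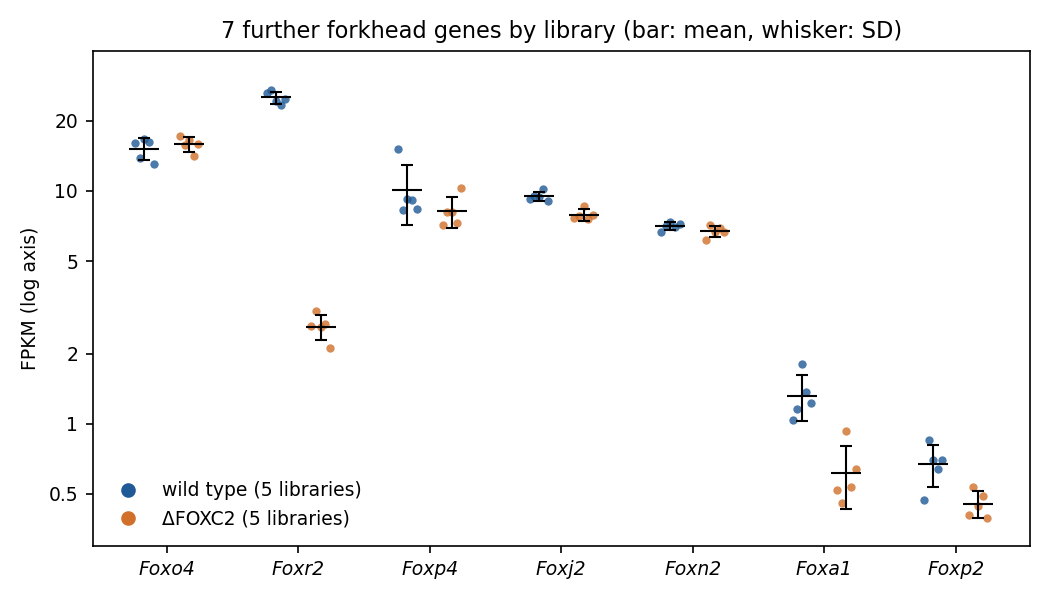
FPKM on a log axis for the 7 further forkhead genes, with a point for each of 5 wild-type (blue) and 5 ΔFOXC2 (orange) libraries, the mean as a bar and the SD as a whisker. Foxr2 is at 23.5 to 27.1 against 2.11 to 3.04 FPKM, and Foxa1 at 1.04 to 1.80 against 0.458 to 0.928.

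**Figure D4:**
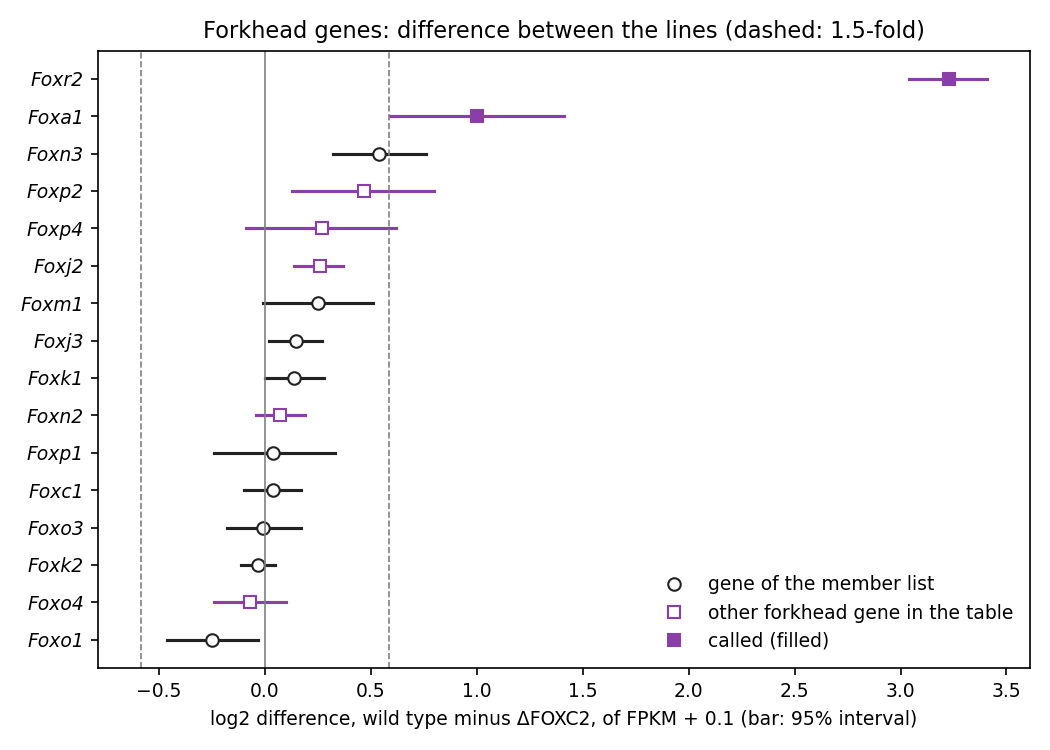
Log2 difference, wild type minus ΔFOXC2, with its 95% interval for 16 forkhead genes, circles for the 9 genes of the list and squares for the other 7. Dashed lines mark 1.5-fold and filled symbols called genes, which are Foxr2 at 3.23 and Foxa1 at 1.00.

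All 16 forkhead genes had values above 0 in every library of both lines. In wild-type cells the order of means was led by Foxk2, Foxm1 and Foxr2, with ranges over libraries that overlapped from each to the next, and Foxr2 stood apart from Foxo4 below it. In ΔFOXC2 cells Foxk2, Foxm1 and Foxo4 led, and their ranges did not overlap. In the middle of the order Foxc1, Foxp1, Foxj3 and Foxk1 followed one another in both lines, and each overlapped the next. Below them came Foxn3 and Foxo1, whose ranges did not overlap in either line. The 16 genes summed to 163 to 183 FPKM in wild-type libraries and to 135 to 141 in ΔFOXC2 libraries. Without Foxr2 the sums were 136 to 159 and 132 to 139 and overlapped. Foxr2 made up 14.8% of the forkhead sum in wild-type and 1.89% in ΔFOXC2 libraries, Foxk2 22.0% and 27.8%, and Foxc1 3.72% and 4.48%. Mean levels were 37.6 and 38.4 FPKM for Foxk2 and 6.35 and 6.20 for Foxc1, so their larger shares reflect the smaller sum. The 9 listed genes together summed to 95.6 to 114 FPKM and 92.7 to 99.8.

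**Figure D5:**
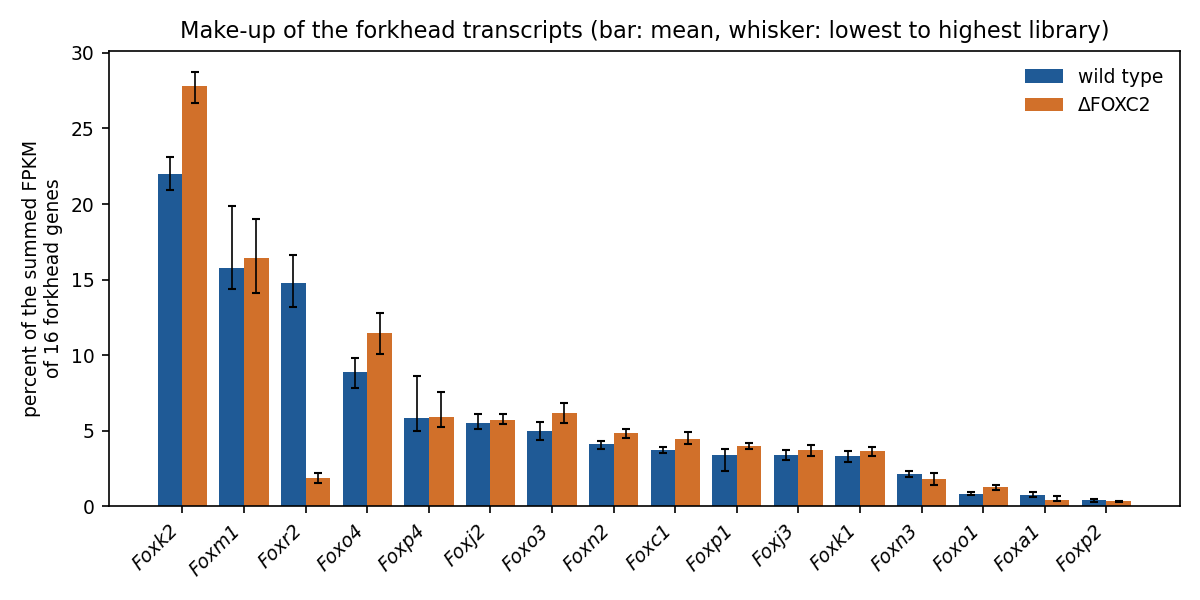
Share of each gene in the summed FPKM of 16 forkhead genes, in percent, as the mean of 5 libraries with whiskers from the lowest to the highest library. Foxr2 falls from 14.8% in wild-type (blue) to 1.89% in ΔFOXC2 (orange) libraries. The share of Foxk2 is 22.0% and 27.8%, at mean levels of 37.6 and 38.4 FPKM, so its larger share reflects the smaller sum.

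Genes known as FOXC targets were mostly not listed. Of 8 fixed by name 3 were tested, and 2 were called lower in the wild type, where 4.97% of all tested genes were. Itgb3, an integrin subunit that both FOXC proteins can activate in mouse endothelium, had 1.17 ± 0.164 against 4.77 ± 0.424 FPKM (log2 -1.94, limma adjusted p = 8.937e-08). Angpt2, an angiopoietin on chromosome 8, had 15.5 ± 1.05 against 28.6 ± 4.06 FPKM (log2 -0.87, limma adjusted p = 2.403e-05). None of the 9 forkhead genes lies on chromosome 8 or on chromosome 1, whose median was -0.26, and the medians of their own chromosomes were -0.11 to 0.06.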

How the data were processed

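RNA of 10 cultures was sequenced from both ends for 150 cycles after poly(A) selection and a strand-marking library kit, per the labels' protocols. The submitters' processing notes name GRCm38 and the programs StringTie, HISAT2, cutadapt and FastQC, and versions are not given in the sources used here. The authors deposited FPKM per gene and library, without counts. No pair of libraries shared a ratio in more than 2 of 296 low genes, so whole reads could not be recovered and depth is unknown. Read from the values, more than 6 decimals occur in 0.907% of genes with 1 annotated transcript and in 94.9% of those with 2 or more, which include every forkhead gene except Foxc1 and Foxo1. How values of genes with several transcripts were combined is not given, and it may add spread to such genes. Foxp1 has 31 annotated transcripts and Foxm1 and Foxp4 have 8.

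The test was limma 3.58.1 under R 4.3.3 (lmFit, then eBayes with trend, two-sided and without covariates) on log2(FPKM + 0.1) for 10570 genes averaging 0.5 FPKM or more. On this scale folds of low genes are understated. All adjusted p-values are from limma with Benjamini-Hochberg adjustment over all tested genes. Exact permutation tests used scipy 1.17.1. On simulated data with 200 changed genes among 10570, limma recovered 89.6% at 1.75-fold, 97% at 2-fold and 100% at 4-fold. The forkhead members and all gene lists were chosen with earlier results of these data known. Named were the 16 forkhead genes, in each list the called members (4 at most each way) or, with no call, the 2 at the highest level, and the 3 genes most like Foxc1 and Foxm1. Genes named outside that rule are said to be, and the neighbours of Foxr2 and Fscn1 were also named after their values were seen. Libraries with the same replicate number did not deviate together (correlations -0.12 to 0.14), so no pairing was used. Alternatives were another pseudocount, filter, scaling or variance model, the replicate number as a block, chromosomes 1, 8 and distal 2 left out, and each library left out. The start of distal chromosome 2, at 150 Mb, was chosen after seeing the data.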

Additional observations from a re-analysis of the deposited data

Results flagged for a closer look

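In groups of 5 libraries, a library was marked when its gap to the nearest other, divided by the range of the group, was above Dixon's critical value at the 95% level. Chance marks about 1 in 20 groups, and 4 of 32 groups of forkhead genes were marked. Foxc1 in wild-type replicate 2 had 5.77 FPKM, where the others had 6.40 to 6.57. Foxm1 in wild-type replicate 3 had 36.5 FPKM, against 23.8 to 26.6 in the others. Foxj2 in ΔFOXC2 replicate 3 had 8.66 FPKM, with 7.55 to 7.85 in the others. Foxp4 in wild-type replicate 1 had 15.2 FPKM, and 8.29 to 9.28 elsewhere in its group. Among the other named genes, Rragb had 0.0473 FPKM in ΔFOXC2 replicate 1 and was listed at 0 in the other 4. Top2a had 89.9 FPKM in wild-type replicate 1, below the 102 to 106 of the others. Gpr143 had 11.1 FPKM in ΔFOXC2 replicate 1, against 14.3 to 15.5.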

How the results depend on the processing

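None of the 9 forkhead genes was called under any other pseudocount, filter, scaling, variance model or with the replicate block. Leaving out single libraries gave 0 to 1 called, the 1 being Foxn3 (log2 0.46 to 0.61), and 1 passed without a fold threshold. The direction of Foxp1 (log2 -0.02 to 0.18) and Foxo3 (-0.05 to 0.05) turned with single libraries left out, at values near 0. Foxr2 was called in all 20 alternatives. Of the 16 forkhead genes, 2 (12.5%) were called, against 8.62% of all tested genes. Without a fold threshold 5 of the 16 passed, against 41.6% of all tested genes. With a pseudocount of 1 or a filter at 5 FPKM, 1 was called. Foxn3, Foxo1, Foxa1 and Foxp2 are below the 5 FPKM filter and have no value there.

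Over all genes, 911 were called (386 higher, 525 lower), 568 with a pseudocount of 1 (230 and 338), 340 with the 5 FPKM filter (123 and 217), and 4392 without a fold threshold. For FOXO upstream genes, the 1 called lower became 0 with a pseudocount of 1 and with the 5 FPKM filter, and the 1 called higher, on chromosome 8, became 0 with chromosomes 1, 8 and distal 2 left out. For FOXO binding proteins, both directions became 0 with a pseudocount of 1 and with the 5 FPKM filter. FOXO targets called higher were 2 with a pseudocount of 1 and 1 with the 5 FPKM filter. FOXM1 targets called higher were 1 with a pseudocount of 0.01 and 0 to 1 with single libraries left out. FOXC targets called lower were 1 with the 5 FPKM filter and 1 with the chromosomes left out. The filter and the chromosomes leave fewer genes to test, and a higher pseudocount shrinks the folds of low genes by construction. With the replicate number as a block, 0 forkhead members and 2 of the 16 were called, and no call named here changed. The numbers do not pair the libraries, and 2 of the 5 wild-type libraries correlated best with the ΔFOXC2 library of their own number. Depth is unknown and limits what can be said of genes near 0.5 FPKM, such as Foxp2 and Foxa1.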

Other observations

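Within groups, the forkhead genes varied largely apart from one another. Over the 10 libraries, the Pearson correlations of log2 deviations from the group means between pairs of the 9 genes ran from -0.49 for Foxj3 with Foxk2 to 0.69 for Foxo1 with Foxo3. The points share their libraries and their scaling, and the values are given as a description.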
